A study of Mus musculus with 6 samples.

Results

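The Hox genes of clusters a to d were examined for open chromatin in immortalised mouse atrioventricular cushion mesenchymal cells. Of the 39 Hox genes in the RefSeq annotation, 38 were analysed, among 21887 protein-coding genes in all, and 1 gene of cluster a was not analysed here. Members were chosen by gene name alone, and a gene was counted as having a peak when a peak overlapped its body or the 1 kb on either side. All peaks inside each cluster were also collected, with cluster a taken from Hoxa2 to Hoxa13 and without the surroundings of the gene not analysed.

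Chromatin accessibility had been measured by ATAC-seq, in which a transposase inserts sequencing adapters into accessible DNA. All cells were one immortalised line of the strain labelled H- 2Kb-tsA58 transgenic, a background that carries a temperature-sensitive SV40 large T antigen, and they were used at passage 6. The 3 normal-glucose libraries came from cells kept in 5.5 mM glucose and the 3 high-glucose libraries from cells kept in 25 mM glucose, in each case for 48 h and from 54000 cells. The labels do not say whether libraries of one condition came from separate cultures, so the spread between them may be technical, and a cultured line at body temperature is a limited model of the embryonic cushion.

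Hox genes encode homeodomain transcription factors that give cells of the body axis, limbs and pharyngeal arches their position. They lie in 4 clusters in which gene order follows paralogue number: low numbers are first active towards the head and high numbers towards the tail and the ends of the limbs. Silent Hox clusters are known as long domains of Polycomb-bound chromatin, and in the heart the low-numbered genes are known from the second heart field and the neural crest of the outflow tract, whereas cushion mesenchyme arises mainly from endocardium.

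Lists of 5 libraries entered the comparisons, with 24255 and 40342 peaks on nuclear chromosomes in normal glucose 1 and 3 and 22149, 25013 and 22589 in high glucose 1, 2 and 3. The list of normal glucose 2 held 52 such peaks, none of them in a Hox cluster, and was left out because it was under the minimum of 1000. No read counts were given, so depth is unknown, and an open site in fewer cells cannot be told apart from a less open site in every cell. Normal glucose 3 had the longest list. Among marker genes, against 44.6% of all protein-coding genes, 8 of 10 of cushion and mesenchyme had a peak in all 5 libraries (Postn and Twist1 in 4), 0 of 6 of endothelium, 0 of 6 of heart muscle, 1 of 5 of blood (Spi1), 2 of 5 of epicardium (Wt1 and Upk3b) and 2 of 4 of neurons (Tubb3 and Syt1). A peak in at least 1 library was present at 10 of 10, 5 of 6, 2 of 6, 3 of 5, 4 of 5 and 3 of 4 of these lists in the same order, against 64.4% of all genes, so the endothelial list was not without peaks. A peak shows accessibility and not expression, so these data describe open sites at Hox genes and not a positional code.

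Most Hox genes had no called peak. A peak in all 5 libraries was present at 4 of 38 Hox genes (10.5%), namely Hoxc6, Hoxc10, Hoxc13 and Hoxd3, against 44.6% of all protein-coding genes. A peak in at least 1 library was present at 13 Hox genes (34.2%), against 64.4% of all protein-coding genes. Hox genes are short, with a median of 3722 bp against 17169 bp for all genes, and longer genes offer more room for peaks. Among genes of up to 10 kb, 2 of 32 Hox genes (6.25%) had a peak in all 5 libraries, against 25.6% of all such genes, and 10 (31.3%) had one in at least 1 library, against 40.2%. At matched length the gap was therefore smaller for any peak than for a peak in every library. The number of Hox genes with a peak was 7 and 12 in normal glucose 1 and 3, and 8, 11 and 4 in high glucose 1, 2 and 3.

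**Figure D1:**
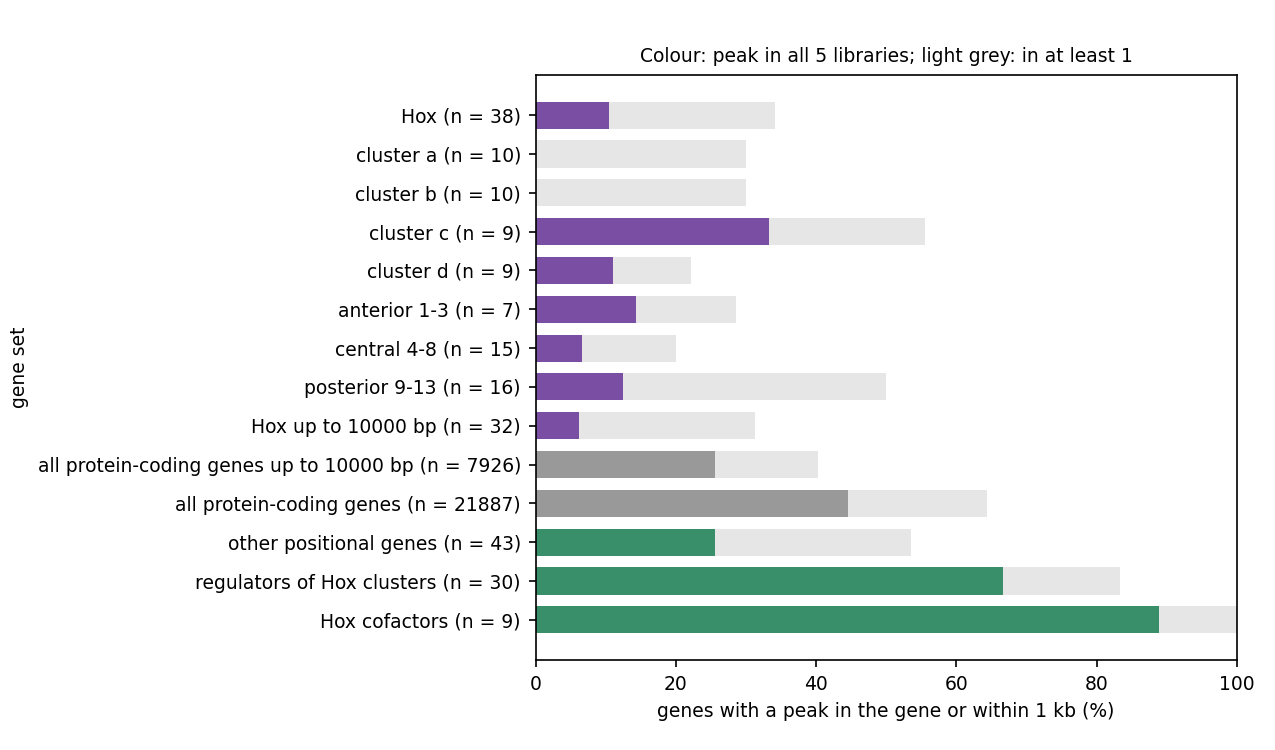
Share of genes (percent) with a peak in the gene or within 1 kb in all 5 libraries and in at least 1 library, for Hox genes (purple), all protein-coding genes (dark grey) and related lists (green). The coloured or dark bar gives all 5 libraries and the light grey bar at least 1. Hox genes stand at 10.5% in all 5 libraries, against 44.6% of all genes and 88.9% of Hox cofactor genes.

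Cluster c, on chromosome 15, held 3 of the 4 genes open in every library. Hoxc10, a high-numbered gene known from lumbar and hindlimb patterning, had 1 peak in each library, in the region chr15:102966512-102966731 (mm10, the build of all coordinates here), which lies 65 bp outside the lower-coordinate end of the gene. Peaks were ranked within their own list by the authors' −log10 p and given a percentile, with 100 for the strongest. The percentile of the Hoxc10 peak was 64.4 and 70.3 in normal glucose 1 and 3 and 91.6, 77.9 and 86.6 in high glucose 1, 2 and 3. Its fold enrichment, the authors' own value, was 7.67 and 8.84 in normal glucose and 13.2, 9.96 and 12.0 in high glucose. Both sets of values were higher in all 3 high-glucose libraries, without overlap, but lists of different length have different scales, so no change is read from them.

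Hoxc6, known from patterning of the thoracic region, carried a region inside the gene, chr15:102999110-102999528, that was 419 bp wide over all libraries. The percentile of its peak was 53.3 and 69.1 in normal glucose 1 and 3 and 81.0, 77.6 and 73.8 in high glucose 1, 2 and 3. Its fold enrichment was 6.73 and 8.25 in normal glucose 1 and 3 and 9.69, 9.42 and 8.60 in high glucose 1, 2 and 3. As at Hoxc10, both sets of values were higher in all 3 high-glucose libraries, without overlap. For the same reason no change is read from them. The percentile was lowest in normal glucose 1 here too. Further inside Hoxc6, chr15:103005559-103005687 and chr15:103005928-103006042 were each listed in 2 libraries, normal glucose 3 and high glucose 1.

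Hoxc13, known for its part in hair and nail formation, had a 361 bp region 106 bp outside its lower-coordinate end, chr15:102920665-102921025, just beyond the limit of the cluster. Its percentile was 17.4 in normal glucose 1 and 84.8 in normal glucose 3, and 83.0, 76.0 and 79.6 in high glucose 1, 2 and 3. Normal glucose 1 stood far below the other 4 libraries, which spanned 76.0 to 84.8, so the spread within normal glucose was as wide as the whole range.

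Of the other genes of cluster c, Hoxc9 and Hoxc11, both of the group active towards the tail, had a peak in 2 libraries each. At Hoxc9 the percentiles were 21.2 in normal glucose 1 and 21.7 in high glucose 2. At Hoxc11 they were 35.7 in normal glucose 3 and 16.7 in high glucose 1, in regions that did not overlap. Hoxc4, Hoxc5, Hoxc8 and Hoxc12 had no peak in any of the 5 libraries.

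Cluster d, on chromosome 2, had 1 gene open in every library. Hoxd3, a low-numbered gene known from the neck vertebrae, carried chr2:74715872-74716076 (205 bp), which also lies inside the non-coding gene Hoxd3os1. Percentiles were 53.8 and 78.7 in normal glucose 1 and 3 and 41.4, 18.9 and 12.6 in high glucose 1, 2 and 3. Here the 2 normal-glucose values were the highest, the opposite order to Hoxc10, and again no change is read from percentiles of lists of different length. The region counts for Hoxd3 because the annotated gene spans 36279 bp, and Hoxd4, which lies within that span, had no peak in its own body or within 1 kb.

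Hoxd11, known from the forearm bones, had 2 peaks in normal glucose 3, the better at the 39.1 percentile, and 1 in high glucose 2 at the 5.19 percentile. Normal glucose 1 and high glucose 1 and 3 had none there. The 7 other genes of cluster d had no peak in any library: Hoxd1, Hoxd4, Hoxd8, Hoxd9, Hoxd10, Hoxd12 and Hoxd13, the last of which is known from the digits.

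Cluster b, on chromosome 11, had no gene open in every library by the 1 kb rule. Hoxb9, known from the thoracic ribs, came closest, with a peak in 4 libraries at the lower-coordinate end of the gene, chr11:96271105-96271367. Its percentile was 22.3 and 72.9 in normal glucose 1 and 3 and 5.75 and 47.1 in high glucose 1 and 2, and high glucose 3 had no peak. A second region, chr11:96270031-96270237, was present in all 5 libraries but lay 1093 bp from Hoxb9, just outside the rule. The percentiles of that region were 53.6 and 54.6 in normal glucose 1 and 3 and 37.5, 69.5 and 35.7 in high glucose 1, 2 and 3, so the conditions overlapped.

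Hoxb7 and Hoxb8, neighbours of the middle group, were both counted from the same region, chr11:96285354-96285633. That region overlaps the lower-coordinate end of Hoxb7 and lies within 1 kb of Hoxb8. It was listed in 3 libraries, at the 56.8 percentile in normal glucose 3, 2.87 in high glucose 1 and 49.7 in high glucose 2. Hoxb1, known from hindbrain segment identity, Hoxb2, Hoxb3, Hoxb4, Hoxb5, Hoxb6 and Hoxb13 had no peak in any library, although Hoxb3 spans 40830 bp.

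In cluster a, on chromosome 6, none of the 10 genes analysed had a peak in every library. Hoxa3, known from the pharyngeal arches, thymus and parathyroid, had 1 peak in normal glucose 1, 5 in normal glucose 3 and 1 in high glucose 2. The region shared by these libraries, chr6:52184737-52184901, stood at the 43.5, 40.5 and 5.99 percentile, and high glucose 1 and 3 had none. Hoxa3 is annotated over 44009 bp, a span that also holds Hoxa4, Hoxa5 and Hoxa6, none of which had a peak of its own.

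Hoxa10, known from the lumbar vertebrae and the uterus, had a peak in normal glucose 3 and high glucose 2, at the 56.2 and 54.6 percentile. Hoxa13, known from the hand and foot plates, had a peak in normal glucose 3 alone, at the 35.9 percentile. Hoxa2, known from the skeleton of the second arch, Hoxa4, Hoxa5, Hoxa6, Hoxa7, Hoxa9 and Hoxa11 had none. A region 1137 bp from Hoxa9, chr6:52221751-52221960, was outside the rule and was listed in 4 libraries, at percentiles of 4.52 and 33.7 in normal glucose 1 and 3 and 40.0 and 19.2 in high glucose 2 and 3. On the inner side of the 1 kb limit, the Hoxc9 region chr15:102975893-102976110 lay at 922 bp and a Hoxc11 region, chr15:102953742-102953839, at 687 bp.

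**Figure D2:**
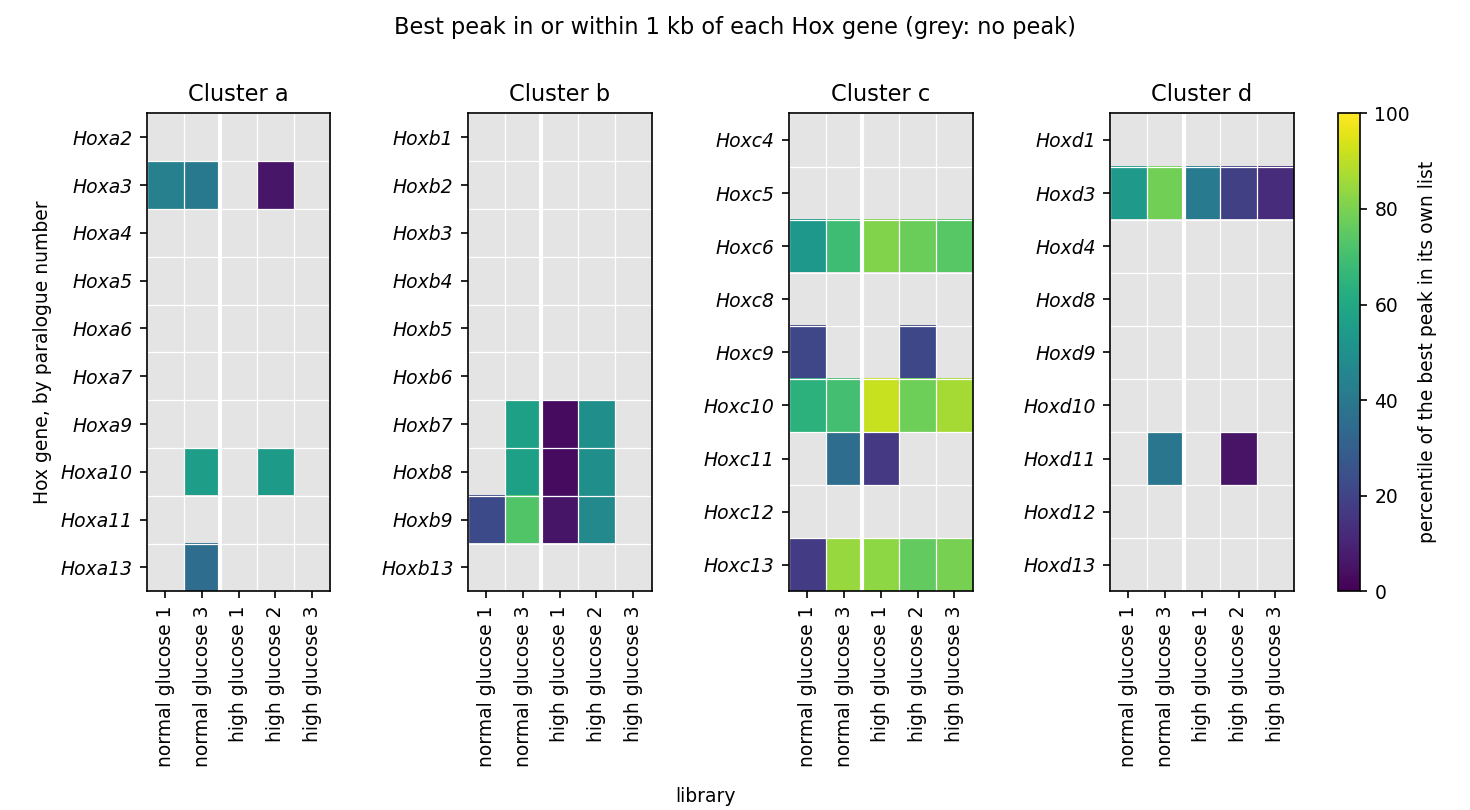
Percentile of the best peak in or within 1 kb of each of the 38 Hox genes (vertical axis, by cluster and paralogue number) in the 5 libraries (horizontal axis), with grey where no peak was listed. Filled cells in all 5 libraries occur at Hoxc6, Hoxc10, Hoxc13 and Hoxd3, and 25 genes are grey throughout.

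By paralogue number, 8 of 16 genes of groups 9 to 13 had a peak in at least 1 library, against 3 of 15 of groups 4 to 8 and 2 of 7 of groups 1 to 3. In all 5 libraries the counts were 2 of 16, 1 of 15 and 1 of 7. Groups 1, 2, 4, 5 and 12 had no peak at any member in any library. Groups 3, 10 and 11 each had a peak at 2 of 3 members, group 9 at 2 of 4 and group 13 at 2 of 4. The 2 genes of groups 1 to 3 with a peak were Hoxa3 and Hoxd3, of group 3. That group had a median length of 40830 bp, against 3722 bp for all Hox genes, which gives more room for peaks. Over all protein-coding genes, 64.4% had a peak in at least 1 library and 44.6% in all 5. These counts are small, neighbouring genes share windows, and no test was made over genes.

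Across the 4 clusters, 485 kb in all, the peaks merged into 31 regions, of which 4 (12.9%) were listed in all 5 libraries, against 25.1% of all 49048 nuclear regions. A single library accounted for 16 of the 31 (51.6%), against 39.7% of all nuclear regions, and 9 (29.0%) were listed only in normal glucose 3, the longest list, against 23.6%. Cluster a held 7 regions and 0 in every library, cluster b 5 and 1, cluster c 13 and 2, and cluster d 6 and 1. The Hox regions had a median width of 137 bp, against 160 bp for all nuclear regions.

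**Figure D3:**
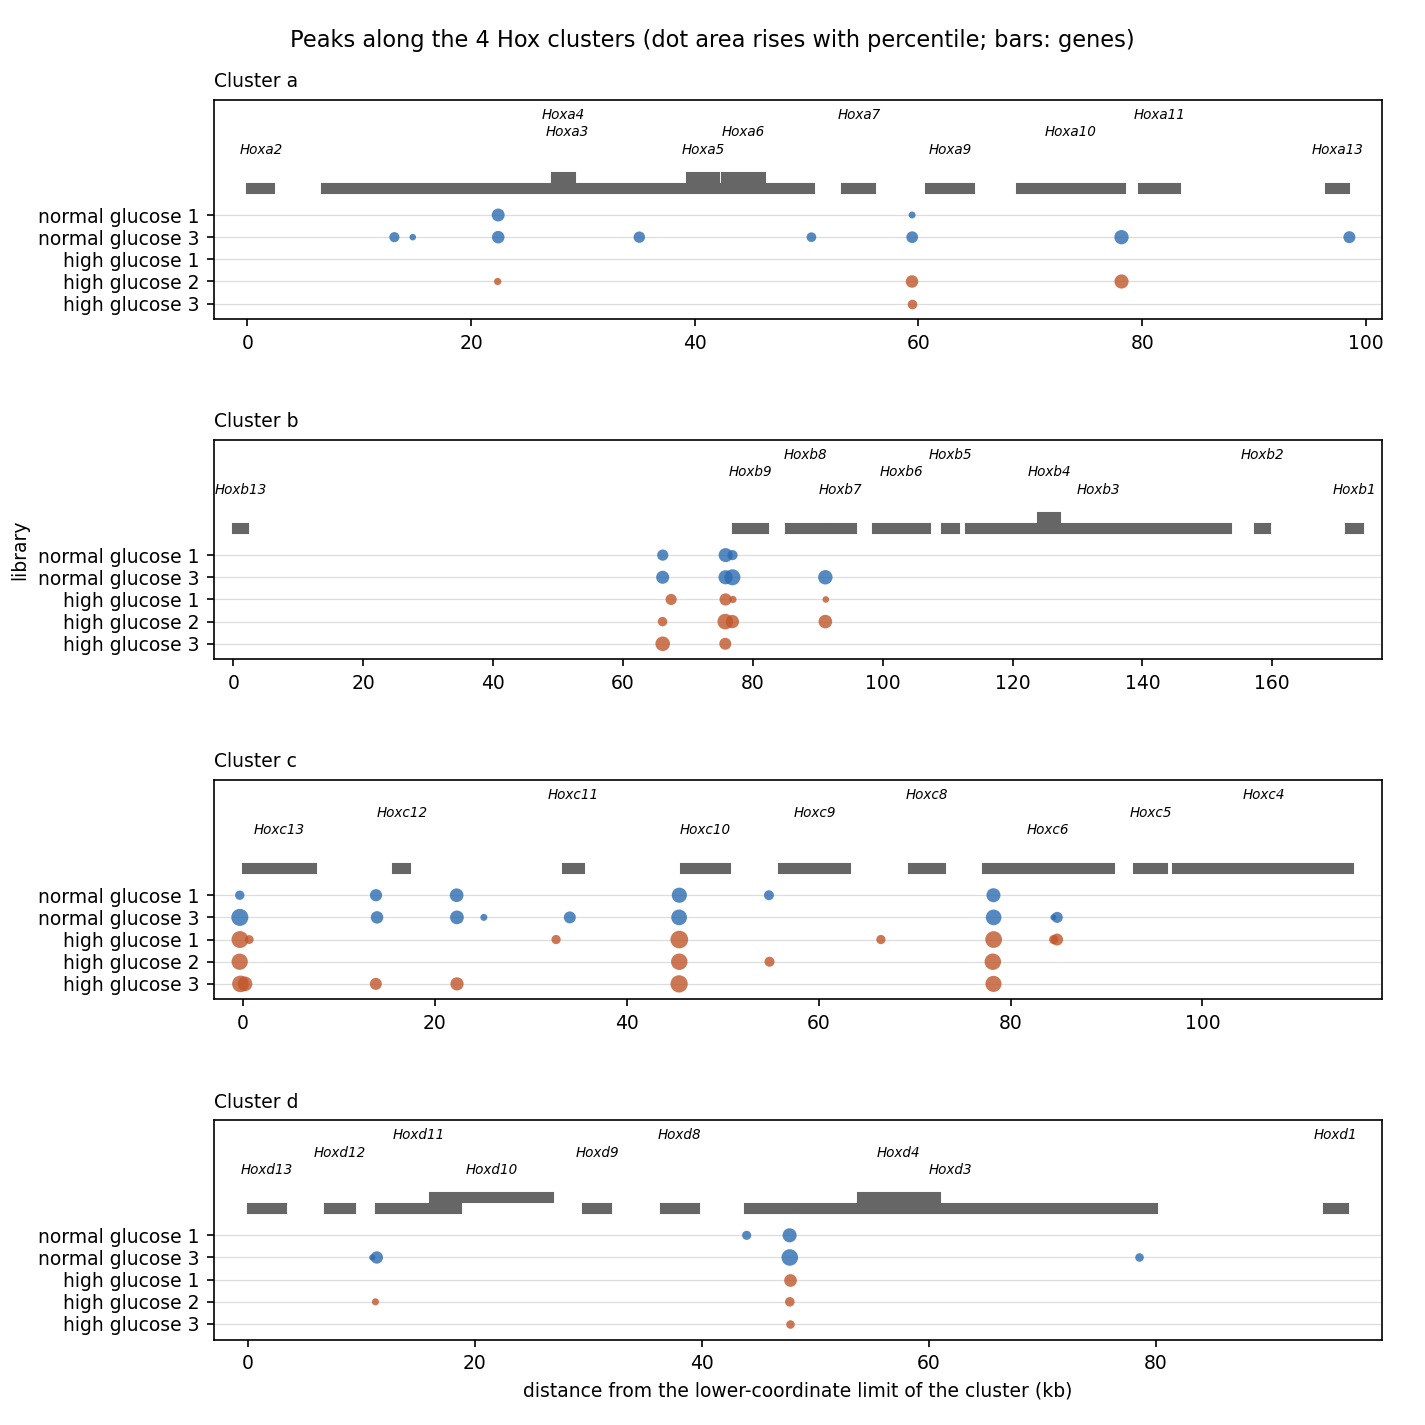
Peaks of the 5 libraries (rows) along each cluster, with the distance in kb from the lower-coordinate limit of the cluster on the horizontal axis, dot area rising with the percentile and grey bars for the Hox genes. The column of dots at Hoxc10 and Hoxc6 in cluster c recurs in every library, whereas the span from Hoxb6 to Hoxb1 in cluster b is empty.

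Peak density was 2.47 and 4.74 peaks per 100 kb of Hox cluster in normal glucose 1 and 3, and 2.47, 2.47 and 1.86 in high glucose 1, 2 and 3. In the 100 kb on either side of the clusters it was 1.26 to 2.52. Pooled over the 4 clusters, density was above that of the flanks in each of the 5 libraries, with a median of 2.47 against 1.39, but single clusters differed. Cluster c was denser than its flanks in all 5 libraries and cluster a in 4, with no peak in either in high glucose 1. Cluster b was sparser than its flanks in normal glucose 1 and 3 and high glucose 3 (1.72 against 2, 2.30 against 2.5 and 1.15 against 1.5). Cluster d was sparser in all 3 high-glucose libraries (1.03 against 1.5, 2.06 against 2.5 and 1.03 against 1.5) and denser in both of normal glucose (2.06 against 1.5 and 4.13 against 2.5). Cluster c had the highest median over libraries, 4.32 per 100 kb, followed by 2.30 for cluster b, 2.06 for cluster d and 2.03 for cluster a, whose libraries ranged from 0 to 7.11. Peaks covered 0.263% to 0.719% of the clusters and 0.219% to 0.441% of the flanks. Gene density differs too: the 1049 windows of 100 kb with at least 5 protein-coding genes held a median of 3 and 5 peaks in normal glucose 1 and 3 and 3, 4 and 3 in high glucose, above the Hox density in each library. Between 26.9% and 45.3% of these windows, depending on the library, lay below the Hox density. The 16852 windows with at least 1 protein-coding gene held a median of 1 peak in each library, below the Hox density. Evx1 and Evx2, homeobox genes that flank clusters a and d, had no peak in any library and a peak in normal glucose 3 alone, respectively.

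The 4 cluster regions found in every library ranged from the 12.6 to the 91.6 percentile. Their median percentile was 53.7 and 69.7 in normal glucose 1 and 3 and 61.2, 73.6 and 54.8 in high glucose 1, 2 and 3. All 12321 nuclear regions found in every library had medians of 72.4 and 83.8 in normal glucose and 70.9, 74.2 and 71.1 in high glucose. The median of the 4 Hox regions was the lower one in each library, by the smallest margin in high glucose 2. This order depends on the limit of cluster c, since the Hoxc13 region just beyond it is not among the 4. Counting that region, the middle Hox region would stand at 81.0, 76.0 and 73.8 in high glucose 1, 2 and 3. These values lie above the medians of all regions, whereas in both normal-glucose libraries the middle Hox region would stay below. Taking every peak in the clusters, the medians were 40.5, 39.1, 23.1, 43.6 and 45.9 in the same order.

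**Figure D4:**
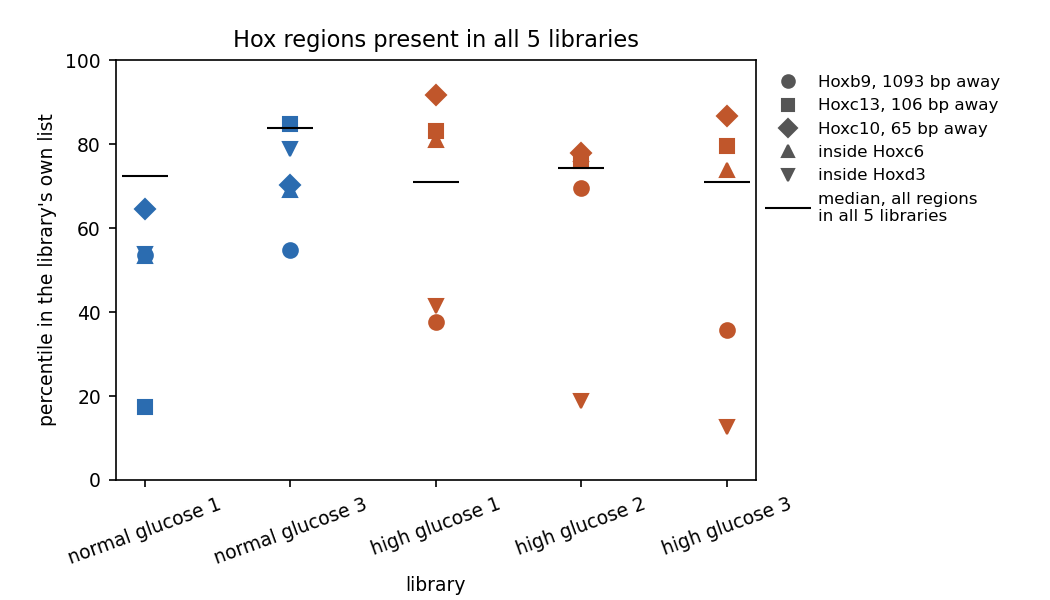
Percentile within its own list (vertical axis) of the Hox regions present in all 5 libraries (horizontal axis), each marked by its nearest gene, with a black line for the median of all nuclear regions present in every library. The Hoxc10 region ranges from 64.4 to 91.6 and the Hoxd3 region from 12.6 to 78.7. The Hoxc13 region, just beyond the limit of cluster c, is included.

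Promoter sequence was available for 24 start sites of 22 Hox genes, as windows of 300 bp from 250 bp before to 50 bp after the start, from RefSeq on GRCm38.p6, whose coordinates are those of mm10. The windows cover the clusters unevenly, with 10 each in clusters a and d, 3 in cluster b and 1, of Hoxc4, in cluster c, which has 3 of the 4 genes open in every library. None of the 24 windows held a peak in all 5 libraries, against 30.0% of 21263 windows of all genes, and 2 held one in at least 1 library, against 46.7%. The median GC content of the Hox windows was 57.7% and their median ratio of observed to expected CpG was 0.626, against 56.3% and 0.567 for all windows. Windows rich in CpG are usually open in most cell types. Among windows with a CpG ratio of at least 0.6, 0 of 12 Hox windows had a peak in all 5 libraries, against 54.4% of 10137 windows of all genes, and 1 of 12 had one in any library, against 79.1%. The start sites of Hoxc6, Hoxc10 and Hoxc13 were not among the windows, so their peaks do not enter these counts. The Hoxc10 and Hoxc13 regions lie 65 and 106 bp outside the lower-coordinate end, which is the start of a gene on the plus strand. Hoxc4, the 1 gene of cluster c with a window, lies on that strand. The counts of 0 therefore hold for the 24 windows and not for all Hox promoters. The Hoxd3 window had no peak.

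Of the 24 windows, the 2 that held a peak are printed below with 2 CpG-rich ones that held none. Each is shown as the 250 bases before the start, 5′ to 3′ on the strand of the gene. Capitals mark bases covered by a peak in at least 1 library. The stretches are Hoxd11 at chr2:74679308-74679557 on the plus strand, Hoxa13 at chr6:52260881-52261130 on the minus strand, Hoxa5 at chr6:52204588-52204837 on the minus strand and Hoxd13 at chr2:74667975-74668224 on the plus strand.
Hoxd11: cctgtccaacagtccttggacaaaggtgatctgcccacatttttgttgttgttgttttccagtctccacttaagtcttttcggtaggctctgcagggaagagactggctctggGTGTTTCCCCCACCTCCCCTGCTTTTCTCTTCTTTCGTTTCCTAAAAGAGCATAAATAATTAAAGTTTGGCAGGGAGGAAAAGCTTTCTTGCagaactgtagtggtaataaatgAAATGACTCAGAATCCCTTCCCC
Hoxa13: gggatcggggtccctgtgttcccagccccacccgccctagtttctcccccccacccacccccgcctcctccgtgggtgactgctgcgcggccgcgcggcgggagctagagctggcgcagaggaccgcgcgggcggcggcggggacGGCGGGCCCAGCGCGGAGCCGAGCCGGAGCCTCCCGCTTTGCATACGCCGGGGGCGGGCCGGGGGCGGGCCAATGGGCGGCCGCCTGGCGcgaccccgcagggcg
Hoxa5: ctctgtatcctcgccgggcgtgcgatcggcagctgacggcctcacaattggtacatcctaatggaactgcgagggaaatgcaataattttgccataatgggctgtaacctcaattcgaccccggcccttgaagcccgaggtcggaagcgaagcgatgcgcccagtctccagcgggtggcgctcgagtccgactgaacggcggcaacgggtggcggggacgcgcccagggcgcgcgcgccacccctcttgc
Hoxd13: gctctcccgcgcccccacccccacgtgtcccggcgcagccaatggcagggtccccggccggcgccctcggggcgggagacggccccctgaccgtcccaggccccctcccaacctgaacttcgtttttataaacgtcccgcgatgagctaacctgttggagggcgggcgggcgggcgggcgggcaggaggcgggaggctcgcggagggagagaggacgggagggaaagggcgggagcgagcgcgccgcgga

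The Hoxd11 stretch has 115 covered bases, from a peak of high glucose 2 and, in the last run of capitals, a peak of normal glucose 3 that did not overlap it. Its 300 bp window had a GC content of 45.7%, 4 CpG sites and a CpG ratio of 0.257, the lowest of the 24 windows. The Hoxa13 stretch has 90 covered bases from normal glucose 3, and its window had a GC content of 81.0%, 45 CpG sites and a ratio of 0.918. The Hoxa5 window, with no peak, had the highest ratio of the 24, 1.02, with 29 CpG sites, and the Hoxd13 window, also with none, had 0.904. The 2 windows with a peak thus lay far apart in CpG ratio, and the Hoxa13 and Hoxd13 windows had similar ratios, with and without a peak.

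**Figure D5:**
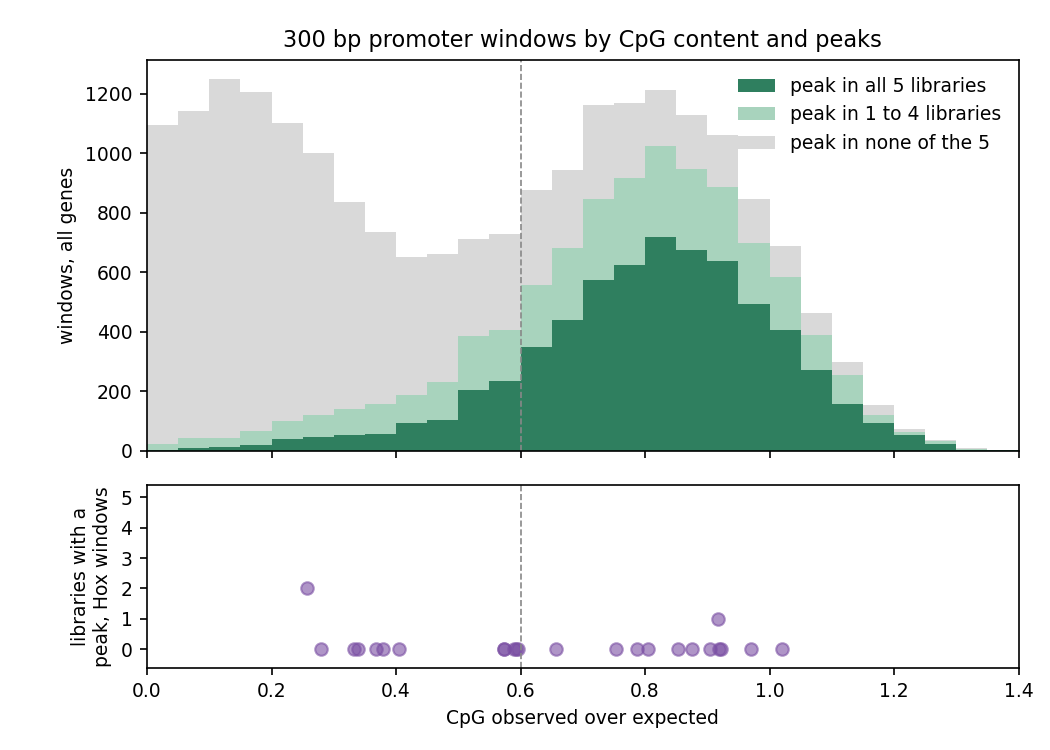
Ratio of observed to expected CpG (horizontal axis) in 300 bp promoter windows: stacked counts of the windows of all genes by peaks in all 5, in 1 to 4 or in none of the libraries (upper panel), and for each Hox window (dot) the number of libraries with a peak (lower panel), with a dashed line at 0.6. The 2 Hox windows with a peak, Hoxd11 and Hoxa13, lie at 0.257 and 0.918.

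Of 8 motifs searched on both strands, 6 occurred in 1 or 2 of the 24 Hox windows each. The AP-1 motif TGANTCA was present in 1, the Hoxd11 window printed above, against 6.99% of all windows, where it starts 20 bases before the gene and lies in the bases covered by normal glucose 3. The homeodomain core TAATTA was present in the windows of both Hoxd11 start sites, against 4.53% of all windows, and the copy in the printed stretch lies in the bases covered by high glucose 2. The Pbx-Hox motif TGATTNAT was found in 2 windows, of Hoxa2 and the second Hoxd11 start, against 2.75% of all windows. The Meis motif TGACAG was found in 2, of Hoxa2 and Hoxa3, against 18.7%, the GC box GGGGCGGGG in 1, of Hoxa9, against 15.4%, and the Tead motif CATTCC in 2, of Hoxa9 and Hoxd10, against 13.6%. The CTCF core, found in 0.329% of all windows, and the retinoic acid response element of the DR5 type, found in 1 of 21263, were in none. In the 250 bases before each start no match of one motif overlapped a match of another, and a match is a description of these letters only.

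Hox clusters also encode microRNAs that target Hox messengers. The 6 microRNA genes of the clusters, Mir196b, Mir196a-1, Mir10a, Mir196a-2, Mir615 and Mir10b, had no peak in or within 1 kb in any of the 5 libraries. No share over all microRNA genes was computed, so this count is not read as low. The main products of 5 of them, all but Mir615, form 2 families, shown because the members of a family sit in different clusters and share a seed, the bases 2 to 8 in capitals, with sequences from RefSeq on GRCm38.p6.
miR-10a-5p: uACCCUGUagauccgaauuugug
miR-10b-5p: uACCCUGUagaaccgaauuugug
miR-196a-5p: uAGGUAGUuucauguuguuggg
miR-196b-5p: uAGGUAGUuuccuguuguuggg
The first pair share the seed ACCCUGU and come from clusters b and d, and the second pair share AGGUAGU, with miR-196a encoded in both clusters b and c and miR-196b in cluster a.

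Of 23 long non-coding RNA genes in the clusters, 3 had a peak in all 5 libraries and 13 had none in any. The 3 were Gm53 and Gm51876, on the lower-coordinate side of Hoxb9, and Hoxd3os1 in Hoxd3. No share over all long non-coding RNA genes was computed, so these counts are not read as high or low. At Gm53 the peaks came from 2 regions that do not overlap, chr11:96260352-96260537 in 4 libraries and chr11:96261698-96261795 in high glucose 1. At Gm51876 they came from chr11:96270031-96270237, outside the gene but within 1 kb, the same region that lies 1093 bp from Hoxb9. Hotair, a non-coding RNA of cluster c known for binding chromatin regulators, had a peak in or within 1 kb in normal glucose 1 and 3 and in high glucose 3. The region beside it, chr15:102943367-102943539, stood at the 50.1, 50.8 and 45.9 percentile in these libraries. Both conditions were thus represented, and high glucose 1 and 2 had no peak there.

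Genes that act with or on Hox genes were taken from 3 lists for comparison, with counts only and no test. Of 9 genes for the Meis, Pbx and Pknox cofactors, homeodomain proteins that bind DNA together with Hox proteins, 8 had a peak in all 5 libraries (88.9%, against 44.6% of all genes), and Pbx2 had one in normal glucose 3 alone. For Meis1 the best peak had percentiles of 73.9 and 75.8 in normal glucose 1 and 3 and of 76.9, 78.2 and 83.4 in high glucose 1, 2 and 3, and the best Pknox1 peak at 94.0 or above in every library. These genes are long, with a median of 139224 bp, which gives more room for peaks than a Hox gene.

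Of 30 genes for regulators of Hox clusters, 20 had a peak in all 5 libraries (66.7%), against 44.6% of all genes. Their median length was 21942 bp, above the 17169 bp of all genes. They included the Polycomb genes Ezh2, Eed and Suz12, which deposit the repressive histone mark of silent Hox clusters, Kmt2a and Men1 of the opposing trithorax group, Ctcf and Rad21, which form chromatin boundaries, and the retinoic acid receptor genes Rara, Rarb and Rarg. For Suz12 the best peak had percentiles of 92.7 and 86.2 in normal glucose 1 and 3 and of 93.9, 97.6 and 86.1 in high glucose 1, 2 and 3. Genes without a peak in any library included Cdx1, Cdx4, Cyp26a1 and Cyp26c1. Of the Cdx genes, which activate Hox genes of the trunk, Cdx2 had a peak in normal glucose 3 alone. Cyp26b1, for an enzyme that breaks down retinoic acid, had a peak in both normal-glucose libraries, at the 29.8 and 62.9 percentile, and in none of high glucose.

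Other genes that mark position, 43 homeobox, T-box and related genes, had a peak in all 5 libraries in 11 cases (25.6%), against 44.6% of all genes and 25.6% of genes of up to 10 kb, 12 had one in 1 to 4 libraries and 20 in none. Their median length was 6888 bp, nearer to that of Hox genes. The 11 included Prrx1, Dlx1, Dlx2, Dlx4, Tbx15, Tbx20, Msx1, Hand2, Otx1 and Emx2. The best Tbx20 peak was at the 92.1 percentile or above in every library. Genes with none in any library included Gbx2, En1, En2, Lhx1, Lhx2, Pdx1, Mnx1, Otx2, Isl1, Hand1 and Msx2. Tbx5 had a peak in high glucose 3 alone.

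The study compared normal with high glucose, and in each of 9 measures of the Hox clusters the libraries of the 2 conditions overlapped. A gene was called specific to high glucose when all 3 libraries of high glucose and neither of normal glucose held a peak, which was so for 0 of 38 Hox genes and 0.0594% of all genes. The reverse was so for 0 of 38 Hox genes and 1.02% of all genes. Of the 31 cluster regions, 0 were listed in high glucose alone and 0 in normal glucose alone by the same rule, against 0.167% and 3.73% of all nuclear regions. With background shares this low, the counts of 0 are no result about the Hox genes.

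The share of a library's nuclear peaks inside the clusters was 0.0495% (95% Wilson interval 0.0283% to 0.0865%) and 0.0570% (0.0380% to 0.0855%) in normal glucose 1 and 3. It was 0.0542% (0.0310% to 0.0947%), 0.0480% (0.0274% to 0.0838%) and 0.0398% (0.0210% to 0.0757%) in high glucose 1, 2 and 3. The conditions overlapped, and the intervals, which cover counting error only, overlapped throughout. The mean was 0.0473% ± 0.00719 (SD, n = 3) in high and 0.0532% ± 0.00533 (SD, n = 2) in normal glucose (difference −0.00591 percentage points, p = 0.4, two-sided exact permutation test). With 2 against 3 libraries the smallest possible p is 0.2.

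Peaks covered 0.332% and 0.719% of the clusters in normal glucose 1 and 3 and 0.361%, 0.411% and 0.263% in high glucose 1, 2 and 3, a difference of means of −0.181 percentage points (p = 0.6, exact permutation test). Normal glucose 3 alone stood above the others, and its list was also the longest. The number of peaks was 2 and 7 in normal against 0, 3 and 1 in high glucose for cluster a, and 3 and 4 against 4, 4 and 2 for cluster b. For cluster c it was 5 and 8 against 7, 3 and 5, and for cluster d 2 and 4 against 1, 2 and 1. Each overlapped between the conditions, with exact permutation p of 0.4, 1, 0.6 and 0.4. The mean fold enrichment of cluster peaks, the authors' value, was 5.95 and 6.24 in normal and 6.21, 6.52 and 7.03 in high glucose. Over the 9 measures compared, the adjusted p was 0.771 or higher.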

How the data were processed

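The files were ATAC-seq peak lists, 1 for each of 6 libraries, grouped by the glucose status and replicate number in the labels. The submitters' processing notes name the peak caller MACS2 2.1.0 and the tools DiffBind 1.12.3, Picard 1.90, SAMtools 0.1.19, Bowtie 1.0.0, cutadapt 1.0 and FastQC, on mm10, with no settings. Read shifting and the treatment of duplicates and mitochondrial reads are not given in the sources used here. For each peak the authors deposited its position, its score, its enrichment as a fold ratio, and its p-value and q-value as −log10. The lowest −log10 q in the 5 lists used was 1.30. Longer lists reach weaker sites, which bears on every count, covered share and mean fold compared between libraries. Genes and regions were called by presence alone, and percentiles and folds of single peaks are given side by side without a test.

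Members and lists were chosen with earlier results of these data known. Genes came from RefSeq on GRCm38.p6, with starts and ends but no exons, so exonic and intronic peaks were not separated. Peaks overlapping by at least 1 bp were merged into regions. A gene or region was specific to a condition when all its libraries and none of the other's held a peak. Values for single members are given for those with a peak in every library, the best of each cluster and, in names only, those with none; values of further members, Cyp26b1 and regions near the 1 kb limit were added after they were seen. Differences of means were tested two-sided by exact permutation, with Benjamini-Hochberg adjustment over 9 measures. P-values measure only the spread between libraries. Alternatives were a −log10 q of at least 5, equal list length, all 6 libraries, each library left out, other windows, overlaps and merging, and replicate numbers as pairs. Computation used SciPy 1.17.1, pandas 2.3.3, numpy 2.4.6 and matplotlib 3.10.9 in Python 3.11.15. Overlaps and calls were tested on simulated data. No genome sequence was used, so the sequences of peaks outside promoter windows are not shown. Some genes of the related lists are not reported here by name.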

Additional observations from a re-analysis of the deposited data

How the results depend on the processing

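With a −log10 q of at least 5, Hox genes with a peak in every library fell from 4 to 2 (without Hoxc13 and Hoxd3), cluster regions from 31 to 16 and those in every library from 4 to 2, and 1 gene (Hoxa3) and 1 region became specific to normal glucose. Hoxc6 and Hoxd3 alone (2) remained when gene bodies were used without the 1 kb, and Hoxc10 and Hoxc13 alone (2) when only 1 kb around gene ends was used. With 2.5 kb on either side Hoxb9 was added (5). With all 6 libraries, including the list of normal glucose 2, the genes and the regions in every library were 0 and 0, because that list had no peak in the clusters, and the difference in the share of peaks reversed to 0.0118 percentage points (p = 0.9, exact permutation test). With lists of equal length (22149 peaks) the 4 genes were the same. Cluster regions fell from 31 to 21, of which 4 were in every library. Both differences reversed, to 0.00376 percentage points for the share of peaks (p = 0.8) and 0.0192 for the share covered (p = 0.6, both exact permutation tests). Leaving out each library in turn gave 4 to 5 genes in every library (5 without high glucose 3, with Hoxb9), 22 to 30 regions, 4 to 6 regions in every library, 0 to 1 normal-glucose gene (Hoxa13 without normal glucose 1, Hoxa3 without high glucose 2) and 0 to 9 normal-glucose regions (1 without normal glucose 3 or high glucose 2, 2 without high glucose 3 and 9 without normal glucose 1, when normal glucose 3 alone stands for its condition). The same series gave differences of −0.00968 to −0.00214 percentage points for the share of peaks and −0.374 to 0.0131 for the share covered, positive without normal glucose 3. The labels do not say that replicate numbers pair the libraries. With the numbers 1 and 3 as a block the differences were −0.00623 and −0.213 percentage points (p = 1 for both, exact permutation tests, smallest possible 0.5). No Hox gene or region was specific to high glucose under any of these settings. Shares over all genes and all nuclear regions were not computed under these settings. The counts specific to a condition are therefore not read as a result about the Hox genes. The cause of these shifts was not tested. Depth is unknown, so a gene without a peak had none called at this threshold and is not shown to be closed.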
